A study of Homo sapiens with 24 samples.

Results

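The BCL2 family genes that hold back or set off cell death were followed across SW872 cells, an established human liposarcoma line, carrying 1 of 7 retroviral constructs. The 10 members were found by Ensembl identifier in every library, out of 60279 genes counted and 19997 genes tested. Of these, 5 encode anti-apoptotic proteins (BCL2, BCL2L1, BCL2L2, MCL1 and BCL2A1), and 5 encode pro-apoptotic BH3-only proteins (BCL2L11, BBC3, PMAIP1, BMF and BIK). All 10 passed the filter of a mean of at least 5 counts per library, but BCL2A1 passed through 1 group alone, with a mean of 98.0 counts in YAP-TFE3 and 3.48 counts over the 21 other libraries.

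Anti-apoptotic BCL2 proteins bind and restrain BAX and BAK, the proteins that open the outer mitochondrial membrane and release cytochrome c. BH3-only proteins occupy the groove of the anti-apoptotic proteins, or engage BAX and BAK directly, and so push the cell toward caspase activation. The balance between both arms is set partly by transcription, since several BH3-only genes are known targets of p53, FOXO factors and stress-response factors.

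The study compared the fusion oncoproteins TAZ-CAMTA1 and YAP-TFE3 with the proteins they derive from. TAZ and YAP are coactivators that the Hippo kinases restrain, and TAZ4SA and YAP5SA are forms with substituted serines that escape this control. The C-terminal part of each fusion comes from a transcription factor, CAMTA1 or TFE3. All cells carried a pBabeNeo vector and had been selected with G418, and each library came from a pool of stably transduced cells, with the triplicates from separate transductions. The groups collected 48 h after confluence were empty vector (EV), TFE3, both fusions, YAP5SA and TAZ4SA. The other two were CAMTA1 and a second empty vector set titled sub-confluent (EVsub). Each of the 8 groups held 3 libraries. The CAMTA1 cells were collected below confluence and were therefore compared with EVsub.

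Totals ranged from 19700277 to 35287476 counts per library. CAMTA1 was at 123 CPM in the CAMTA1 group (22.9 in EVsub), YAP1 at 253 CPM in YAP5SA (128 in EV) and TFE3 at 336 CPM in TFE3 (119 in EV), where CPM are counts scaled to library size with TMM. However, WWTR1, the TAZ gene, was lower in the libraries labelled TAZ4SA (134 ± 0.538 CPM) than in EV (204 ± 20.3 CPM; SD, n = 3). WWTR1 was also lower than EV in YAP-TFE3 (126 ± 3.17 CPM) and YAP5SA (68.7 ± 1.66 CPM). It therefore does not check the TAZ4SA label, on which every direction given for those libraries rests. YAP-TFE3 replicate 3 stood apart, with a chi-square per degree of freedom of 66.1 and 52.2 against its 2 partners, which differed from each other by 10.3, and pairs in other groups lay between 3.02 and 23.9. Mesenchymal markers were present (8 of 8 over 1 CPM on average over all libraries). Of 8 adipocyte markers, 3 averaged over 1 CPM (LPL, PPARG and CEBPA), while ADIPOQ, PLIN1, FABP4, LEP and CIDEC averaged less. The adipocyte list summed to 64.2 to 370 CPM per library. Endothelial markers averaged over 1 CPM in 7 of 8 cases and epithelial markers in 4 of 8. All 8 blood cell markers averaged under 1 CPM. In bulk RNA, fewer cells of a kind and less RNA per cell cannot be told apart.

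Levels of different genes were compared per length, as CPM divided by exon length in kilobases (RPKM). Averaged over all libraries, BCL2L1, which encodes BCL-XL, was at 36.7 RPKM and MCL1, whose short-lived protein guards many cell types, at 31.9 RPKM. BCL2L2, which encodes BCL-W, followed at 12.5 RPKM. Of the BH3-only genes, PMAIP1 (NOXA) was highest at 11.0 RPKM, followed by BBC3 (PUMA) at 4.22 RPKM, BCL2L11 (BIM) at 3.67 RPKM and BMF at 3.23 RPKM. BCL2 itself was low, at 0.645 RPKM. BCL2A1 and BIK were close to the limit of detection, at 0.497 and 0.326 RPKM. These averages pool all groups. BCL2L1 was above MCL1 only in YAP5SA and the libraries labelled TAZ4SA, and in EV it was below (21.5 against 27.9 RPKM). BCL2L11 was above BBC3 in EV (5.62 against 4.83 RPKM). Between the highest and the lowest group mean, MCL1 differed 1.28 times and BCL2L2 1.48 times, against 3.60 times for BCL2L1 and 3.85 times for BBC3.

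**Figure D1:**
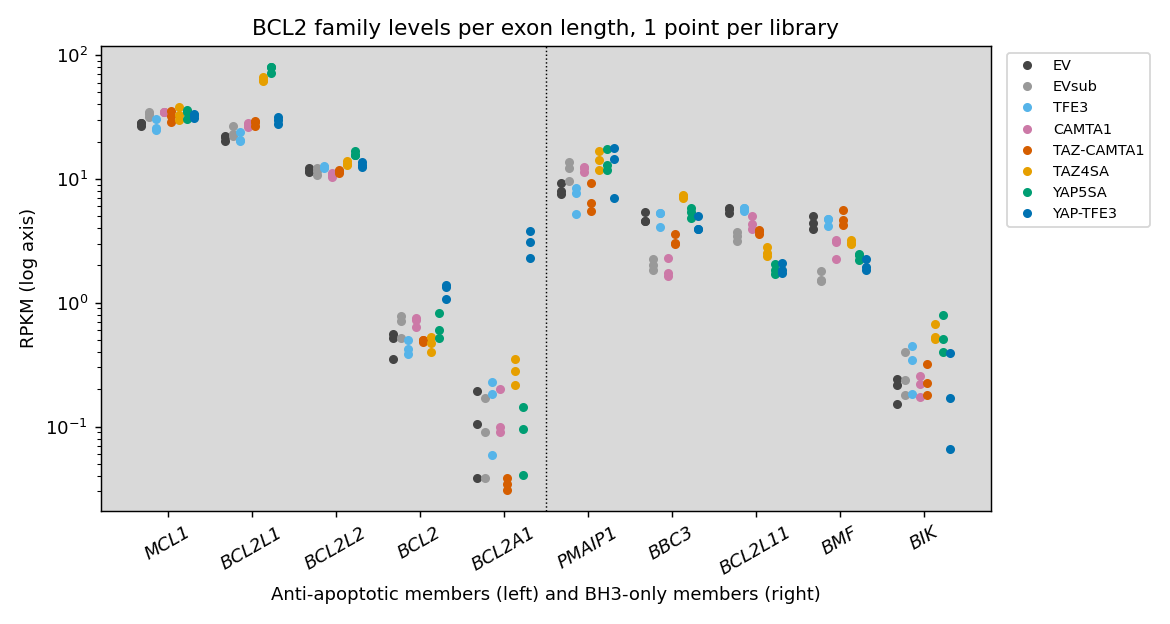
Level of each member in RPKM (log axis) in all 24 libraries, 1 point per library and 1 colour per group, with anti-apoptotic members left of the dotted line and BH3-only members right of it. MCL1, BCL2L1 and BCL2L2 lie highest among the anti-apoptotic members, BCL2L1 is highest in YAP5SA and the libraries labelled TAZ4SA, and BCL2A1 is above 1 RPKM in the 3 YAP-TFE3 libraries alone.

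Promoters are shown for the members that varied most and had an entry, because the proteins behind the constructs act on transcription: YAP and TAZ through TEAD factors, TFE3 through E-box motifs. RefSeq promoters of GRCh38.p14 were matched for 7 of the 10 members (all but MCL1, BCL2L2 and BIK), with 9 windows of 250 bases before a start site. Searched on both strands were GGAATG (bound by TEAD factors), CACGTG (E-box), CATGTG (M-box core), TGANTCA (AP-1), CCAAT and an NF-kB site. Capitals mark the matches and no match overlaps another. The BCL2L1 window is chr20:31723964-31724213 (minus strand), BCL2A1 chr15:79971197-79971446 (minus strand) and BCL2L11 chr2:111120664-111120913 (plus strand), each read 5′ to 3′ up to the base before the start. The BBC3 window is cut to the 150 bases of chr19:47232768-47232917 (minus strand), from 250 to 101 bases before the start, because annotated exons cover the rest. The BCL2L11 window lies inside the annotated gene, which begins at 111119378, so it precedes a later start site. The last bases of the BCL2L1 window also lie inside its annotated gene, which reaches 31723989.
BCL2L1: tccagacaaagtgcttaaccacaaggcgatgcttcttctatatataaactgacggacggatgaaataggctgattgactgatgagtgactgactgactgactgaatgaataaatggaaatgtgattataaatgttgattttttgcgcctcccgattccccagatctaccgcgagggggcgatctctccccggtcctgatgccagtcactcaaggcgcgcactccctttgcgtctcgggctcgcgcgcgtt
BCL2A1: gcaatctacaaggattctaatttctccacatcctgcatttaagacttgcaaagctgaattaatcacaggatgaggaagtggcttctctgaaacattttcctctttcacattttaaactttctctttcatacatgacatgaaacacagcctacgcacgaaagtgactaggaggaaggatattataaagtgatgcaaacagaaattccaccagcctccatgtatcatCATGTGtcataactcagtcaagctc
BCL2L11: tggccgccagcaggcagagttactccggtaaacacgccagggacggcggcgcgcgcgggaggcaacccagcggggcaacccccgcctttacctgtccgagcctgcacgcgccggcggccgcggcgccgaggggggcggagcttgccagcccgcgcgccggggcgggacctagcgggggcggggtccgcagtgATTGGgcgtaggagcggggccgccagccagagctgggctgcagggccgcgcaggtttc
BBC3: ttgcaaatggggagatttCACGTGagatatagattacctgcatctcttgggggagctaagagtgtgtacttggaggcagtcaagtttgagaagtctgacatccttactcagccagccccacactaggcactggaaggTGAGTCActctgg
GGAATG was found in none of the 9 member windows and in 11.9% of all 35116 windows. CATGTG lay 25 to 20 bases before the BCL2A1 start, and 9.42% of all windows held it. BBC3 held CACGTG 232 to 227 bases before its start, a motif in 6.34% of all windows, and TGAGTCA 113 to 107 bases before it, where TGANTCA was in 6.57% of all windows. CCAAT was in 3 of the 9 windows (BCL2L11, BBC3 and BMF) and in 32.0% of all windows, and the NF-kB site in none of the 9 and in 0.142% of all. These are matches of letters in short windows, and binding was not measured in these libraries. The study reported that TAZ4SA, YAP5SA and both fusions mostly bound distal intergenic sites in SW872 cells, which these windows leave out. A second BCL2L1 window, without any of these motifs, is not shown.

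The number of members called is given beside the share of all genes called for each comparison. In the libraries labelled TAZ4SA, edgeR called 9 of 10 members at an adjusted p under 0.05, where 49.2% of all tested genes were called. Of these, 7 were higher (25.1% of all genes) and 2 lower (24.2%), and 8 of 9 were called without BCL2A1. Under total-count scaling 5 were called, 3 higher and 2 lower, beside 10673 of the 19997 genes tested. BCL2L2, MCL1, BCL2A1 and PMAIP1 were lost. YAP5SA changed 7 members (44.3% of all genes), 5 higher (22.7%) and 2 lower (21.6%). YAP-TFE3 changed 6 (48.2%), 4 higher (25.6%) and 2 lower (22.6%), or 5 of 9 without BCL2A1, which had passed the filter through this group. TAZ-CAMTA1 changed 3 (4.98%), 1 higher (3.55%) and 2 lower (1.44%). CAMTA1 changed 1 member against EVsub (1.83%), which was higher (1.26%), and none was lower (0.57%). TFE3 changed 0 members by edgeR (0.035% of all genes, all of them higher), with 0 at an unadjusted p under 0.05 and 0 called by DESeq2. EVsub against EV, which differ in culture density, called 5 members (36.8%), 2 higher (19.8%) and 3 lower (17.1%). All comparisons with EV share the same 3 EV libraries.

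Between constructs, TAZ-CAMTA1 differed from the libraries labelled TAZ4SA in 8 members (53.7% of all genes), 2 higher (26.9%) and 6 lower (26.8%), or in 7 of 9 without BCL2A1. YAP-TFE3 differed from YAP5SA in 5 members (52.4%), 2 higher (28.1%) and 3 lower (24.3%), or in 4 of 9 without BCL2A1. Against TFE3 it differed in 7 (48%), 5 higher (25.4%) and 2 lower (22.5%), or in 6 of 9. TAZ-CAMTA1 differed from YAP-TFE3 in 7 (42.7%), 2 higher (19.9%) and 5 lower (22.8%), or in 6 of 9. The libraries labelled TAZ4SA differed from YAP5SA in 4 (7.17%), 2 higher (3.53%) and 2 lower (3.64%), but in 1 or 2 without any 1 of the 6 libraries and in 2 with no filter or with only these groups fitted.

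**Figure D2:**
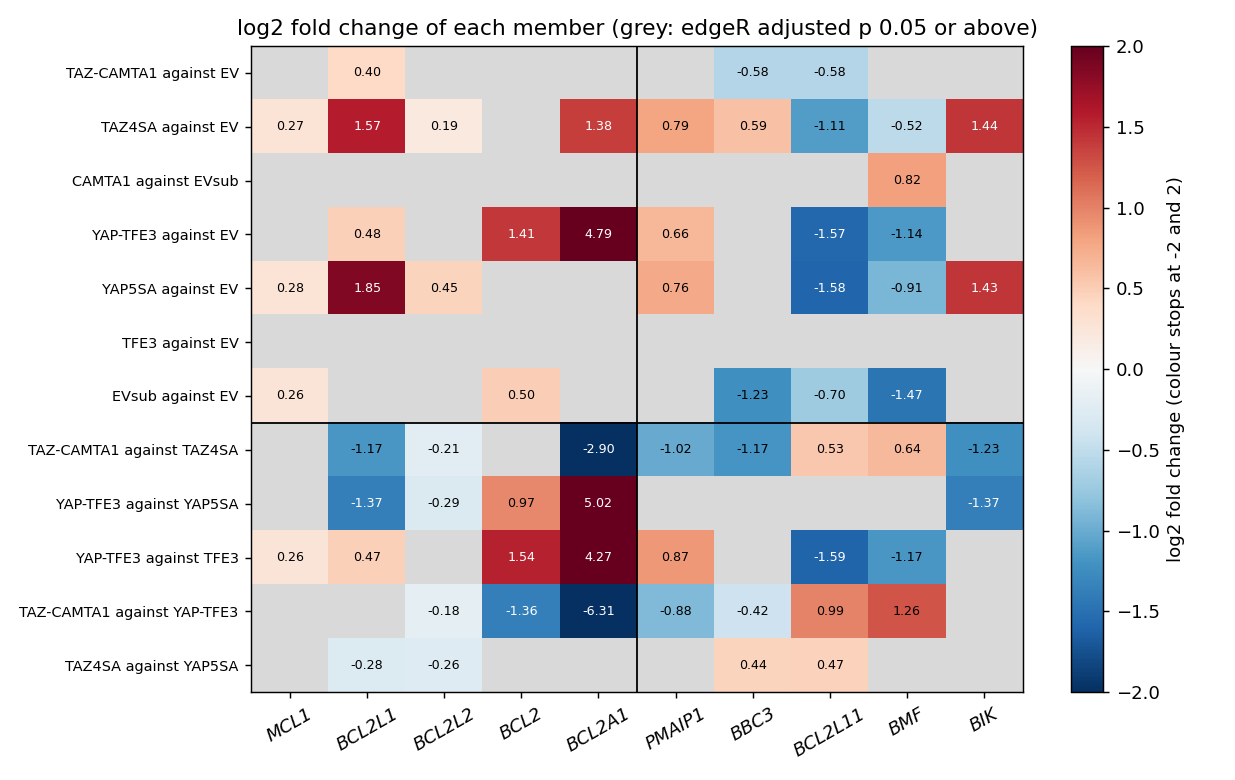
log2 fold change of each member (columns) in each of the 12 comparisons (rows), first group against second, printed where the edgeR adjusted p was under 0.05 and grey elsewhere. BCL2L11 runs from -0.58 to -1.58 and BCL2L1 from 0.40 to 1.85 for both fusions, TAZ4SA and YAP5SA against the shared EV, and no member is coloured for TFE3 against EV. BCL2L11 is also coloured for EVsub against EV, at -0.70. The BCL2L2 value of 0.19 for the libraries labelled TAZ4SA turns to -0.0076 under total-count scaling, and BCL2A1 was tested at all only because it was high in YAP-TFE3, with few counts elsewhere.

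BCL2L1 was the anti-apoptotic gene that the hyperactive parents raised most. It lies on chromosome 20 (31664452 to 31723989, minus strand, GRCh38) and encodes the long form BCL-XL and a short pro-apoptotic splice form, which gene counts do not separate. EV libraries held 84.6, 93.7 and 92.2 CPM, the libraries labelled TAZ4SA 279, 264 and 258 CPM, and YAP5SA libraries 335, 337 and 301 CPM. These last 6 lay above every other library. The log2 fold change against EV was 1.57 (SE 0.08, adjusted p = 3.74e-13 by edgeR) for TAZ4SA and 1.85 (SE 0.08, adjusted p = 2.19e-14 by edgeR) for YAP5SA. Both fusions raised BCL2L1 less. TAZ-CAMTA1 libraries held 123, 121 and 113 CPM and YAP-TFE3 libraries 126, 134 and 118 CPM, also without overlap with EV. Their log2 fold changes were 0.40 (SE 0.08, adjusted p = 0.00379 by edgeR) and 0.48 (SE 0.08, adjusted p = 3.81e-05 by edgeR).

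Set against its own parent, TAZ-CAMTA1 had less BCL2L1 than the libraries labelled TAZ4SA (log2 fold change -1.17, edgeR adjusted p = 4.86e-11). YAP-TFE3 had less than YAP5SA (log2 fold change -1.37, edgeR adjusted p = 2.49e-12). The libraries labelled TAZ4SA held less than YAP5SA (log2 fold change -0.28, edgeR adjusted p = 0.0364). That last call was lost in 5 of 6 fits without a library, namely without TAZ4SA replicate 1, 2 or 3 or YAP5SA replicate 1 or 2, with adjusted p between 0.0583 and 0.141. TFE3 libraries (100, 86.8 and 85.6 CPM) overlapped EV. EVsub libraries, at 97.7, 93.8 and 112 CPM, lay above every EV library but were not called (edgeR adjusted p = 0.115). CAMTA1 libraries, at 119, 114 and 110 CPM, overlapped TAZ-CAMTA1. An exon of the antisense gene ABALON overlaps BCL2L1, and whether counting used strand was not stated. Epithelial markers moved alongside, from a sum of 206 to 223 CPM over 8 genes in EV to 1894 to 2163 CPM in TAZ4SA and 3017 to 4029 CPM in YAP5SA, mostly KRT8, while EPCAM, CDH1, KRT5 and KRT19 stayed under 1 CPM on average over all libraries. Of the 7 epithelial markers tested, 3 were higher and 1 lower in TAZ4SA, and 3 higher and 2 lower in YAP5SA, with EPCAM the largest fall in each. Mesenchymal markers also moved, from a sum of 6461 to 7552 CPM over 8 genes in EV to 2405 to 3634 CPM in TAZ4SA (5 called lower, 1 higher) and 2840 to 4903 CPM in YAP5SA (2 called lower, 1 higher). The part of either list in the BCL2L1 values was not tested.

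**Figure D3:**
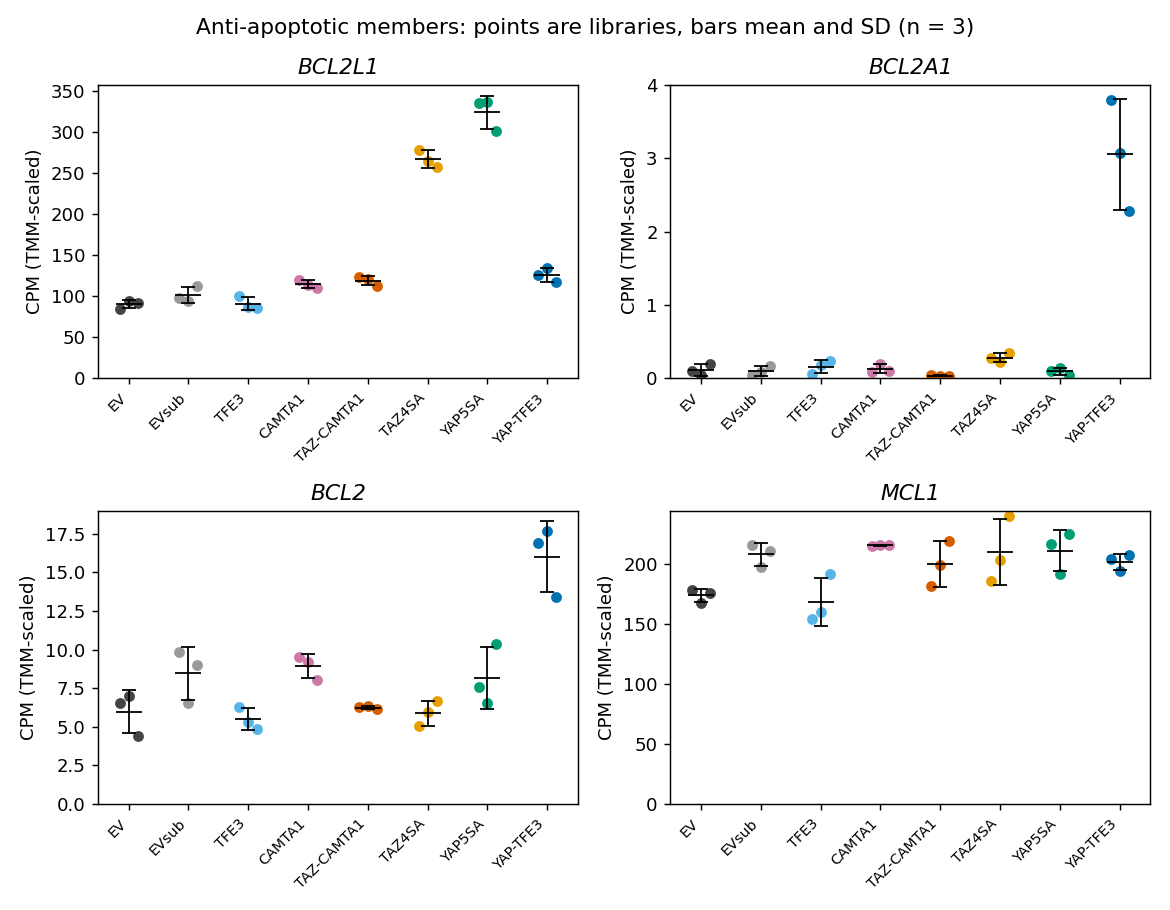
CPM of 4 anti-apoptotic members by group, where points are libraries and bars give mean and SD (n = 3). BCL2L1 is highest in YAP5SA and in the libraries labelled TAZ4SA, BCL2A1 and BCL2 are highest in YAP-TFE3, and MCL1 varies least.

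BCL2A1, an NF-kB target in blood cells whose protein is known as BFL-1, was near 0 outside YAP-TFE3. The gene is on chromosome 15 (79960892 to 79971196, minus strand) and overlaps no other exon. YAP-TFE3 libraries held 117, 98 and 79 counts. EV libraries held 3, 1 and 4, YAP5SA libraries 2, 3 and 1, TFE3 libraries 2, 6 and 7, TAZ-CAMTA1 libraries 1, 1 and 1, and the libraries labelled TAZ4SA 7, 5 and 9. The YAP-TFE3 libraries stood above all others, also in CPM (3.80, 3.08 and 2.28 CPM). The ratio of summed counts, corrected for library size, was 28.7 against EV, 33.8 against YAP5SA and 19.8 against TFE3. It pools the 3 libraries of a group and so leaves out the spread between them. BCL2A1 entered the test only because it was high in YAP-TFE3, so its counts are given as a description, with no test. Without YAP-TFE3 replicate 3 the mean was 3.44 CPM, against 3.05 CPM with it. The 8 blood cell markers together held 2.47 to 3.96 CPM in YAP-TFE3 and 2.36 to 3.15 CPM in EV, with ITGAM called higher and CD3E lower of 5 tested, and their part in the BCL2A1 value was not tested.

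BCL2, the founding member, on chromosome 18 (63123346 to 63320128, minus strand), also rose in YAP-TFE3. Its libraries held 16.9, 17.7 and 13.4 CPM against 6.52, 7.01 and 4.41 CPM in EV, with no overlap (log2 fold change 1.41, SE 0.18, adjusted p = 5.97e-07 by edgeR). YAP5SA held 7.60, 6.51 and 10.4 CPM and TFE3 6.25, 5.33 and 4.88 CPM, both overlapping EV. YAP-TFE3 exceeded both, by 0.97 (edgeR adjusted p = 6.57e-05) and 1.54 (edgeR adjusted p = 1.40e-07) on the log2 scale, and exceeded TAZ-CAMTA1, where the log2 fold change of TAZ-CAMTA1 against it was -1.36 (edgeR adjusted p = 1.17e-06). EVsub held 9.83, 6.53 and 9.03 CPM (log2 fold change against EV 0.50, edgeR adjusted p = 0.036), a call lost without EV replicate 3 or EVsub replicate 1 or 3, with adjusted p between 0.109 and 0.202.

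MCL1 (chromosome 1, 150560895 to 150579738, minus strand) and BCL2L2 (chromosome 14, 23298790 to 23311751, plus strand) moved little. MCL1 was lowest in TFE3, with 154, 160 and 191 CPM, and highest in CAMTA1, with 215, 216 and 215 CPM, and 6 of 7 neighbouring groups in the order of means overlapped. It was called higher than EV in YAP5SA (log2 fold change 0.28), EVsub (0.26) and the libraries labelled TAZ4SA (0.27), with edgeR adjusted p of 0.0181, 0.0336 and 0.0201. Each of these calls was lost under total-count scaling, with adjusted p of 0.487, 0.175 and 0.575. The TAZ4SA call was also lost without EV replicate 2 or TAZ4SA replicate 3 (adjusted p = 0.071 and 0.168), and the YAP5SA call without EV replicate 2 or YAP5SA replicate 1 or 3 (0.0566 to 0.0763). The EVsub call was lost without any 1 of the EV replicates or EVsub replicate 1 or 3 (0.0504 to 0.112). BCL2L2 held 75.4, 75.2 and 81.6 CPM in YAP5SA, above all 3 EV libraries at 54.8, 55.9 and 59.1 CPM (log2 fold change 0.45, SE 0.07, adjusted p = 1.25e-05 by edgeR). For the libraries labelled TAZ4SA the change was 0.19 (edgeR adjusted p = 0.0282), and it turned to -0.0076 under total-count scaling and was lost without EV replicate 1 or 2 or TAZ4SA replicate 1 or 2 (adjusted p = 0.0532 to 0.108). Exons of HOMEZ, PPP1R3E and the readthrough gene BCL2L2-PABPN1 overlap BCL2L2, and exons of ADAMTSL4 and ADAMTSL4-AS1 overlap MCL1, so reads of both members may be shared.

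BCL2L11, whose protein BIM engages every anti-apoptotic member, was lower than EV with both fusions and both hyperactive parents. It is on chromosome 2 (111119378 to 111168444, plus strand), and an exon of the antisense gene MIR4435-2HG overlaps it. EV libraries held 38.2, 36.1 and 39.2 CPM and TFE3 libraries 39.0, 37.3 and 39.6 CPM. TAZ-CAMTA1 held 26.0, 24.2 and 25.7 CPM, the libraries labelled TAZ4SA 16.2, 17.1 and 19.1 CPM, YAP5SA 12.5, 11.6 and 13.9 CPM, and YAP-TFE3 11.7, 12.5 and 14.1 CPM. None of these 12 libraries reached the EV range. The log2 fold changes against EV were -0.58 for TAZ-CAMTA1 (SE 0.10, adjusted p = 0.000554 by edgeR), -1.11 for TAZ4SA (SE 0.10, 3.33e-09), -1.58 for YAP5SA (SE 0.10, 1.15e-11) and -1.57 for YAP-TFE3 (SE 0.10, 1.12e-11). TAZ-CAMTA1 had more than its parent (log2 fold change 0.53, edgeR adjusted p = 0.000109), and more than YAP-TFE3 (0.99, edgeR adjusted p = 3.67e-08). YAP-TFE3 and YAP5SA overlapped in BCL2L11 (edgeR adjusted p = 0.92). EVsub, with empty vector alone, was also lower than EV without overlap, at 23.2, 25.3 and 21.4 CPM. Its log2 fold change was -0.70 (SE 0.10, adjusted p = 1.64e-05 by edgeR), and TAZ-CAMTA1 overlapped EVsub. The BCL2L11 calls given here were kept in every alternative.

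BMF, which encodes a BH3-only protein tied to the cytoskeleton and to loss of attachment, is on chromosome 15 (40087890 to 40108892, minus strand). An exon of the antisense gene BMF-AS1 overlaps it. BMF fell in YAP-TFE3 from 21.7, 23.8 and 27.5 CPM in EV to 9.94, 10.7 and 12.4 CPM (log2 fold change -1.14, SE 0.13, adjusted p = 1.54e-07 by edgeR). YAP5SA held 12.0, 13.5 and 13.2 CPM (log2 fold change -0.91, edgeR adjusted p = 5.42e-06) and the libraries labelled TAZ4SA 17.7, 16.4 and 16.6 CPM (-0.52, edgeR adjusted p = 0.00195). No library of these 3 groups overlapped EV. TAZ-CAMTA1 libraries, at 30.5, 23.0 and 25.6 CPM, overlapped EV and exceeded their parent (log2 fold change 0.64, edgeR adjusted p = 0.00023) and YAP-TFE3 (1.26, edgeR adjusted p = 4.57e-08). BMF was lowest in EVsub (8.23, 9.82 and 8.37 CPM; log2 fold change against EV -1.47, edgeR adjusted p = 1.86e-07), and it was the 1 member called in CAMTA1 against EVsub (17.0, 12.3 and 17.5 CPM; log2 fold change 0.82, SE 0.14, adjusted p = 0.000845 by edgeR). CAMTA1 also overlapped no EVsub library in BCL2L11 (26.7, 29.4 and 34.0 CPM against 23.2, 25.3 and 21.4 CPM), with an edgeR adjusted p of 0.0584 that fell to 0.0448 without CAMTA1 replicate 1.

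**Figure D4:**
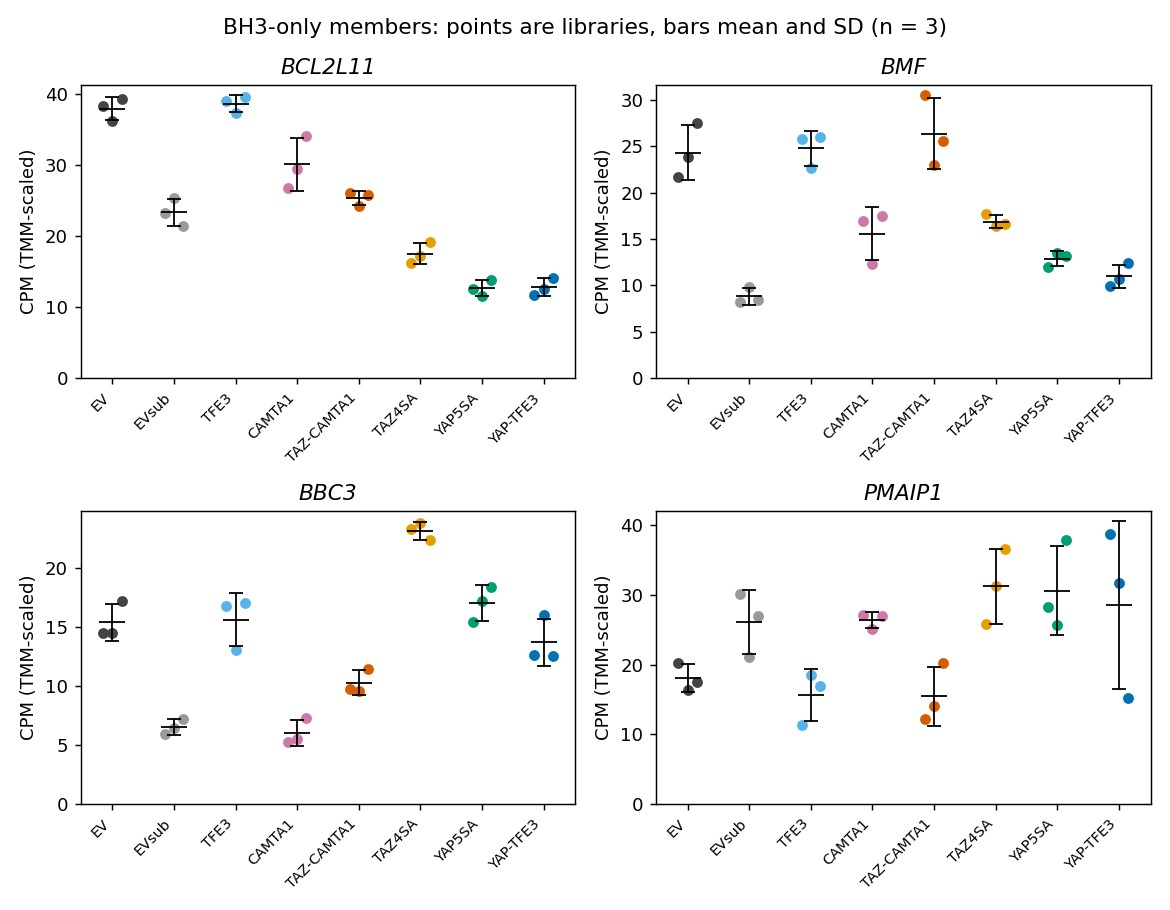
CPM of 4 BH3-only members by group, where points are libraries and bars give mean and SD (n = 3). BCL2L11 and BMF are low in YAP-TFE3 and YAP5SA, BBC3 is lowest in both sets collected or titled sub-confluent, and PMAIP1 is spread over a wide range in YAP-TFE3.

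BBC3, a p53 target that encodes PUMA, is on chromosome 19 (47220822 to 47232766, minus strand), where MIR3190 and MIR3191 overlap an exon. It differed between the TAZ constructs in opposite directions. EV libraries held 14.5, 14.5 and 17.2 CPM, the libraries labelled TAZ4SA 23.3, 23.8 and 22.3 CPM (log2 fold change 0.59, SE 0.13, adjusted p = 0.000704 by edgeR), and TAZ-CAMTA1 libraries 9.73, 9.55 and 11.5 CPM (-0.58, SE 0.14, adjusted p = 0.0106 by edgeR). The 3 groups did not overlap. Set against each other, TAZ-CAMTA1 was lower by a log2 fold change of -1.17 (edgeR adjusted p = 1.25e-07). The TAZ-CAMTA1 call against EV was lost without EV replicate 3 (adjusted p = 0.0683) or TAZ-CAMTA1 replicate 2 (adjusted p = 0.0625). EVsub held 5.91, 6.44 and 7.21 CPM (log2 fold change against EV -1.23, SE 0.14, adjusted p = 2.13e-06 by edgeR), and CAMTA1, at 5.26, 5.52 and 7.27 CPM, overlapped it. YAP5SA and YAP-TFE3 overlapped EV.

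PMAIP1, whose protein NOXA binds MCL1 and BFL-1, is on chromosome 18 (59899996 to 59904305, plus strand). It held 20.3, 16.4 and 17.5 CPM in EV, 25.9, 31.3 and 36.6 CPM in the libraries labelled TAZ4SA, and 28.3, 25.7 and 37.9 CPM in YAP5SA, without overlap. The log2 fold changes were 0.79 (SE 0.25, adjusted p = 0.0105 by edgeR) and 0.76 (SE 0.25, adjusted p = 0.015 by edgeR). YAP-TFE3 held 38.8 and 31.6 CPM but 15.2 CPM in replicate 3, below EV, and its log2 fold change was 0.66 (edgeR adjusted p = 0.0306). Without replicate 3 the YAP-TFE3 mean was 35.2 CPM against 28.5 CPM with it. That call was lost without EV replicate 2 or 3 or YAP-TFE3 replicate 1 or 2, with adjusted p between 0.0752 and 0.242. It was also lost under total-count scaling (edgeR adjusted p = 0.0789) and with only YAP-TFE3 and EV fitted (0.081). The TAZ4SA call was lost without TAZ4SA replicate 3 (adjusted p = 0.0501) and the YAP5SA call without EV replicate 2 or YAP5SA replicate 3 (adjusted p = 0.0565 and 0.0866), and both were lost under total-count scaling. TAZ-CAMTA1 libraries, at 12.1 to 20.2 CPM, overlapped EV and lay below all libraries labelled TAZ4SA (log2 fold change -1.02, edgeR adjusted p = 0.00137), a call kept in every alternative.

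BIK, on chromosome 22 (43110750 to 43129712, plus strand), encodes a BH3-only protein of the endoplasmic reticulum and was near the limit of detection, with 2 to 16 counts per library. The libraries labelled TAZ4SA held 12, 15 and 13 counts and YAP5SA 16, 8 and 12, against 6, 6 and 3 in EV. The log2 fold changes were 1.44 (edgeR adjusted p = 0.0121) and 1.43 (edgeR adjusted p = 0.0155), the latter lost without YAP5SA replicate 1 (adjusted p = 0.0952). Ratios of summed counts were 2.73 (95% exact counting interval 1.48 to 5.32) and 2.71 (1.45 to 5.33). The BCL2A1 call counted in TAZ4SA against EV carries no weight, because the gene entered the test through YAP-TFE3 alone. That call was lost with the replicate number as a block, with DESeq2, under total-count scaling, with no filter and with only these groups fitted. It was also lost without EV replicate 1 or 2 or TAZ4SA replicate 1 or 3.

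Summed over 5 genes each, the anti-apoptotic level was 61.7 ± 1.18 RPKM in EV, 111 ± 2.09 RPKM in the libraries labelled TAZ4SA, 128 ± 2.74 RPKM in YAP5SA, 79.7 ± 1.24 RPKM in YAP-TFE3 and 72.5 ± 1.78 RPKM in TAZ-CAMTA1 (SD, n = 3). BCL2L1 made up 34.8% of this sum in EV and 60.4% in YAP5SA, while MCL1 was at 27.9 ± 0.890 RPKM in EV and 33.9 ± 2.78 RPKM in YAP5SA. The BH3-only level was 23.4 ± 1.22 RPKM in EV, 27.8 ± 2.44 in TAZ4SA and 24.1 ± 3.43 in YAP5SA, so the ratio of both sums was 2.64 ± 0.124 in EV, 4.02 ± 0.301 in TAZ4SA and 5.37 ± 0.779 in YAP5SA. PMAIP1 made up 35.3% of the BH3-only sum in EV, 51.1% in TAZ4SA and 57.6% in YAP5SA. Without division by length, the BH3-only sum averaged 95.8 CPM in EV, 89.3 CPM in TAZ4SA and 73.7 CPM in YAP5SA. Its direction therefore depends on the scale. In YAP-TFE3 the ratio ran from 3.18 to 5.01, with the highest value in replicate 3. TFE3 stood at 2.73 ± 0.167, EVsub at 3.62 ± 0.211 and TAZ-CAMTA1 at 3.82 ± 0.390. No test was run on these sums, and sums of mRNA levels do not measure protein.

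**Figure D5:**
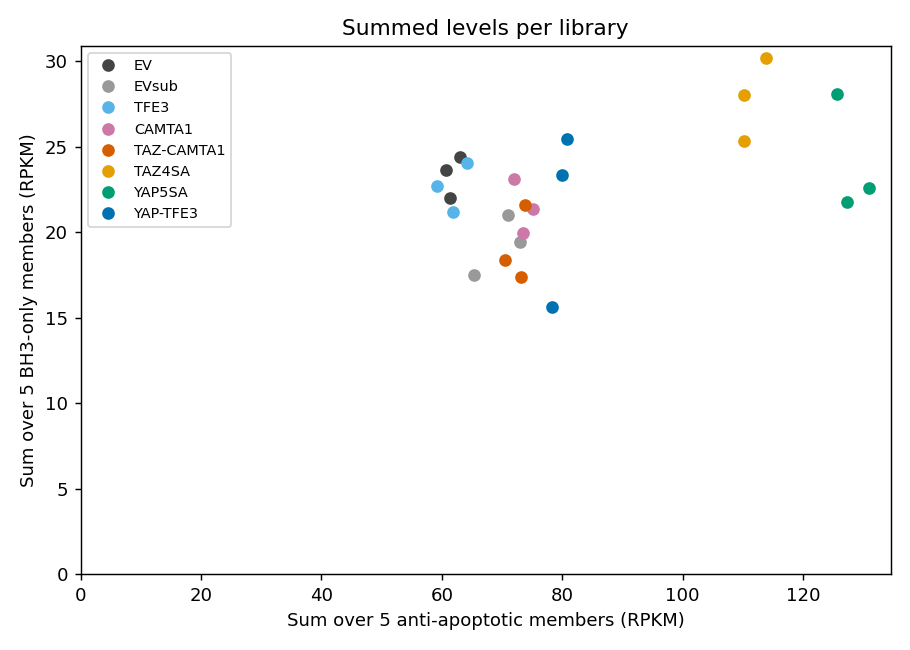
Sum of the 5 anti-apoptotic members (x axis, RPKM) against the sum of the 5 BH3-only members (y axis, RPKM), 1 point per library. EV and TFE3 lie at 59.2 to 64.2 RPKM on the x axis, YAP5SA at 126 to 131 RPKM, and the lowest y value (15.7 RPKM) is YAP-TFE3 replicate 3.

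Other genes of the pathway, from lists chosen with earlier results known, are given by their counts. They are to be read against the shares of all genes called against EV. These shares were 48.2% in YAP-TFE3 (25.6% higher, 22.6% lower) and 44.3% in YAP5SA (22.7% higher, 21.6% lower). In the libraries labelled TAZ4SA the share was 49.2% (25.1% higher, 24.2% lower), and in TAZ-CAMTA1 4.98% (3.55% higher, 1.44% lower). Of 11 other BCL2 family genes tested, YAP-TFE3 against EV called 6 (3 higher, 3 lower), the libraries labelled TAZ4SA 5 (all higher) and YAP5SA 6 (5 higher), with median log2 fold changes of 0.08, 0.17 and 0.26 beside -0.01, -0.03 and -0.04 over all genes. The totals called, both directions together, lie near the all-gene shares. HRK, a BH3-only gene known mostly from neurons, rose in each of the 3 groups, with log2 fold changes of 2.35, 2.74 and 2.80, to group means of 1.03 to 1.38 CPM. Of 13 death receptor genes tested, TAZ-CAMTA1 called 3 (2 higher, 1 lower), YAP-TFE3 8 (6 higher, 2 lower), YAP5SA 5 (2 higher, 3 lower) and the libraries labelled TAZ4SA 9 (5 higher, 4 lower). FAS rose with both fusions, by 0.86 in TAZ-CAMTA1 (edgeR adjusted p = 0.0114) and 1.54 in YAP-TFE3 (edgeR adjusted p = 8.15e-07). TNFRSF10A, a TRAIL receptor, was the largest fall in both fusions (log2 fold change -0.49 in TAZ-CAMTA1 and -0.52 in YAP-TFE3). TNFRSF10D, a decoy TRAIL receptor, was the largest rise in YAP5SA (0.71) and in the libraries labelled TAZ4SA (0.82), where TNFSF10, which encodes the ligand TRAIL, was the largest fall (-2.19 and -1.91). Of 14 apoptosome, caspase and IAP genes, 7 were called in YAP-TFE3 (2 higher, 5 lower) and 8 in TAZ4SA (2 higher, 6 lower), near the all-gene shares of 48.2% and 49.2%. BIRC5, a mitotic inhibitor of apoptosis, was the largest fall of that list in YAP-TFE3 (log2 fold change -1.27) and the largest rise in TAZ4SA (0.50).

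Of 19 p53 target genes tested, 10 were called in YAP-TFE3 (8 higher, 2 lower), 13 in the libraries labelled TAZ4SA (8 higher, 5 lower) and 12 in YAP5SA (8 higher, 4 lower), with a median log2 fold change of 0.10, 0.23 and 0.15, beside the same all-gene medians as above and all-gene shares called of 48.2%, 49.2% and 44.3%. GDF15, also a stress-response gene, rose most in all 3, from 0.454 CPM in EV to 52.9 ± 31.4 CPM in YAP-TFE3. DDIT3, which encodes the stress factor CHOP, led the 14 factors known to bind BH3-only genes in YAP-TFE3 (log2 fold change 3.36, edgeR adjusted p = 3.05e-08). There 11 of the 14 were called (6 higher, 5 lower). The 6 include TFE3, whose C-terminal part the construct itself carries. ATF3 led in TAZ4SA (2.40) and YAP5SA (2.38). Proliferation genes moved too: all 14 had a lower fitted value in YAP-TFE3 than in EV, 13 of them called (median log2 fold change -1.29). Of all genes, 48.2% were called there, 22.6% lower. In EVsub all 14 had a higher fitted value than in EV, 11 of them called (median 0.71). Of all genes, 36.8% were called there, 19.8% higher. The part of the proliferation genes in the BCL2A1, BCL2, BCL2L11, BBC3 and BMF values was not tested.

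The genes whose pattern was most like that of a member were sought for the 3 members with the widest range, by Pearson correlation of log2 CPM over the 24 libraries, which share groups. For BCL2A1 these were LCP1 (0.949), USP54 (0.933) and P2RX7 (0.931), for BBC3 ZSCAN18, DNAL4 and SLC27A1 (0.951, 0.950 and 0.950), and for BCL2L1 GADD45B (0.982), ANXA3 (0.978) and LINC03061 (0.976). BCL2A1 averaged 98.0 counts in YAP-TFE3 and 3.48 counts over the 21 other libraries. Its correlation therefore mainly contrasts YAP-TFE3 with the rest, and any gene high in that group could rank near it. The BCL2A1 ranking shows no likeness beyond that contrast. In the order of group means, neighbouring groups overlapped in 7 of 7 pairs for BIK, 6 of 7 for MCL1 and PMAIP1, 5 of 7 for BCL2, BCL2A1, BCL2L1, BCL2L2 and BMF, 4 of 7 for BBC3 and 3 of 7 for BCL2L11.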

How the data were processed

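Poly(A) RNA of 24 SW872 libraries was sequenced with a stranded kit. The deposited values were raw whole-number counts per Ensembl gene, which the authors made after alignment to hg38 (GRCh38) with Hisat2 in bcbio-nextgen. The counting program, whether it used strand and what it did with multi-mapped reads were not given in the sources used here, so genes with overlapping exons are uncertain. Salmon estimates, which the authors tested with DESeq2, were not used here.

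Groups and replicate numbers came from the titles. The main test was edgeR 4.0.16 (R 4.3.3, quasi-likelihood F), with TMM scaling, all 24 libraries and 1 mean per group, on the 19997 genes that averaged 5 or more counts. Benjamini-Hochberg adjustment ran over all of them, and a gene was called at an adjusted p under 0.05. An SE was computed from the log2 fold change and its F statistic. Symbols, coordinates, exon lengths and overlaps came from GENCODE for GRCh38. Totals of 19700277 to 35287476 counts set the precision, and intervals on summed counts cover counting error only. With 3 libraries a group, exact permutation could give no p below 0.1. The test script was tested on simulated data.

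The 10 members, the gene lists and the comparisons were chosen with earlier results of these data known. All 10 members are described. From the other lists, genes were named as the largest called rise or fall of a list in a comparison, and likeness was computed for the 3 members of widest range among genes averaging 100 counts or more. KRT8 and the members' own overlapping genes were named after their values were seen. Alternatives were a replicate block, DESeq2 1.42.0, total-count scaling, no filter beyond 1 count, a mean of at least 20 counts, only the groups compared, and fits without each library. The log2 fold change is printed for called members alone, and 31 of the 58 others changed sign in some alternative.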

Additional observations from a re-analysis of the deposited data

How the results depend on the processing

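Of 120 member comparisons, 62 were called, and 39 of these calls were kept under every alternative that tested the gene. The BCL2L1, BCL2L11 and BMF calls against EV and the BCL2 call of YAP-TFE3 against EV were among them. The 62 include 6 BCL2A1 calls, all kept except that of TAZ4SA against EV. They carry no weight, since BCL2A1 passed the filter through YAP-TFE3 alone. Of the 62, 14 were lost under total-count scaling and 22 without some library, and 6 further results gained a call in some alternative. Of the 58 changes not called, 31 changed sign under at least 1 alternative, none past the threshold. The one called change that reversed was BCL2L2 in the libraries labelled TAZ4SA against EV, at -0.0076 under total-count scaling. That scaling moved the median of all genes by -0.198 in TAZ4SA against EV, -0.185 in YAP5SA against EV and 0.198 in TAZ-CAMTA1 against TAZ4SA. The cause was not tested.

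Counts of called members moved as follows. TAZ4SA against EV gave 5 under total-count scaling in place of 9. EVsub against EV gave 3 under total-count scaling and 3 to 5 without a library, in place of 5 (3 without EV replicate 3, EVsub replicate 1 or EVsub replicate 3). CAMTA1 against EVsub gave 2 under DESeq2 and with a mean of at least 20 counts, in place of 1, and 1 to 2 without a library (2 without CAMTA1 replicate 1). TAZ-CAMTA1 against YAP-TFE3 gave 4 with only the groups compared, in place of 7. TAZ4SA against YAP5SA gave 2 with no filter, 2 with only the groups compared and 1 to 2 without a library, in place of 4, whichever library was left out. Over all genes, calls moved over 1.5 times in TAZ-CAMTA1 against EV (996, with 545 without EV replicate 2 and 556 without TAZ-CAMTA1 replicate 3), CAMTA1 against EVsub (366, with 652 with no filter, 648 with only the groups compared and as few as 177 without CAMTA1 replicate 1 or 2 or any EVsub replicate), TFE3 against EV (7, with 15 by DESeq2, 40 with no filter, 2 with only the groups compared 12 without TFE3 replicate 2 and 1 without EV replicate 1 or 2 or TFE3 replicate 3) and TAZ4SA against YAP5SA (1434, with as few as 900 without TAZ4SA replicate 1 or 2 or YAP5SA replicate 1).

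Replicate numbers did not pair the libraries: no comparison had a correlation of deviations over 0.1 in all its pairs, and mean correlations lay between -0.0962 and 0.189. With the replicate number as a block, 4 member calls changed. BCL2A1 in TAZ4SA against EV was lost (adjusted p = 0.0574), and BCL2L11 in CAMTA1 against EVsub (0.0459, so that 2 members were called in place of 1), MCL1 in YAP-TFE3 against EV (0.0346) and BBC3 in YAP-TFE3 against YAP5SA (0.0446) were gained. Depth limits BCL2A1 and BIK, which a mean of at least 20 counts leaves out.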
